A study of Mus musculus with 20 samples.

Results

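Mutant microglia that carry the V600E form of Braf were compared with control microglia in 2 brain regions of the same mice, to ask which mutant changes were restricted to 1 region. All 20 libraries of the series entered the comparison, 2 from each of 10 mice. For each mouse the log2 expression of a gene in the library labelled brainstem (BS) was set against that in the library labelled cortex (Cort), and the differences of 5 VE mice were compared with those of 5 Ctrl mice with stage as a covariate. The VE mice were Cx3cr1CreER heterozygotes with the Braf LSL-V600E allele, 2 at end-stage (M1376 and M1524) and 3 at 2 months (M2617, M2621 and M2624). The Ctrl mice were 2 of the end-stage group (M1375 and M1521) and 3 at 2 months (M2618, M2629 and M2633). M1375 was labelled as Cx3cr1 wild type with the Braf VE allele and so has no Cre, and M1521 as a Cx3cr1 heterozygote without that allele. The 3 Ctrl mice at 2 months were likewise Cx3cr1 heterozygotes without that allele in the records titled with their numbers. All mice came from females injected once with 37.5 mg per kg 4-hydroxytamoxifen at embryonic day 9.5. Recombination by this Cre at that day targets early progenitors of microglia and other macrophages and need not reach all microglia.

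Genotype was read from the mouse number that names each count column. The sample records of 4 of the 2-month mice (M2617, M2618, M2621 and M2633) carry the other genotype, and under the records' genotypes no gene passed the comparison described here. Both counts are given because the labels do not settle which reading is right. Region is given as labelled. Summed transcripts of hindbrain genes (the Hox genes among them) were higher in the Cort-labelled library of 9 of 10 mice, at a median of 0.69 CPM (counts per 1000000 counted reads) over BS-labelled and 2.06 CPM over Cort-labelled libraries. These sums are low but above the floor of 3 counts (0.147 to 0.318 CPM). In Ctrl mice they were 0.363 to 1.19 CPM in BS-labelled and 1.86 to 4.11 CPM in Cort-labelled libraries. In VE mice they were 0.379 to 1.18 CPM in BS-labelled and 0.654 to 2.92 CPM in Cort-labelled libraries. Summed cortical neuron markers were higher in the BS-labelled library of 5 of 5 VE and 2 of 5 Ctrl mice. Whether region labels were exchanged was not tested.

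Deposited counts summed to between 9395203 and 21171114 per library, the lowest in the Cort-labelled library of M1375. The BS-labelled library was the deeper one in 2 of 5 VE mice and in 4 of 5 Ctrl mice (exact permutation within stage, two-sided p = 0.0333, smallest possible 0.0167), and the part of depth in the results was not tested. The microglial gene Csf1r was high in all 20 libraries (7190 to 14200 CPM). The T-cell gene Cd3e reached 0.0493 CPM at most. By Xist and Ddx3y all 4 end-stage mice were female in pattern, as were 1 of 3 VE and 2 of 3 Ctrl mice at 2 months, and both libraries of each of the 10 mice gave the same pattern.

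BRAF is a kinase of the RAS-ERK cascade, and the V600E form signals without upstream input. In microglia a V600E clone is known from histiocytosis with neurodegeneration, in which hindbrain regions are often affected. Resting microglia carry P2ry12, P2ry13 and Sall1. Under damage they can lose these and gain a phagocytic, lipid-handling and lysosomal set, the disease-associated genes, to which Apoe, Cst7, Itgax and the cathepsins belong.

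The mutant response differed between regions at 125 of 16595 genes tested (0.753%; edgeR quasi-likelihood test on paired libraries, Benjamini-Hochberg adjusted p under 0.05). The interaction is the VE minus Ctrl log2 difference in BS-labelled libraries minus that in Cort-labelled libraries. It was positive at 58 genes (0.35% of those tested) and negative at 67 (0.404%). Within-mouse differences of the 5 VE and 5 Ctrl mice did not overlap at 104 of the 125 genes, where 3.13% of all tested genes showed no overlap. Of the 67 negative genes, 66 had a VE minus Ctrl estimate above 0 in Cort-labelled libraries, and of the 58 positive genes 56 had one below 0 there. In BS-labelled libraries the signs were mixed: 37 of the 67 were below 0 and 32 of the 58 above 0. Each region alone gave 141 genes in BS-labelled (0.85%) and 1304 in Cort-labelled libraries (7.86%).

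**Figure D1:**
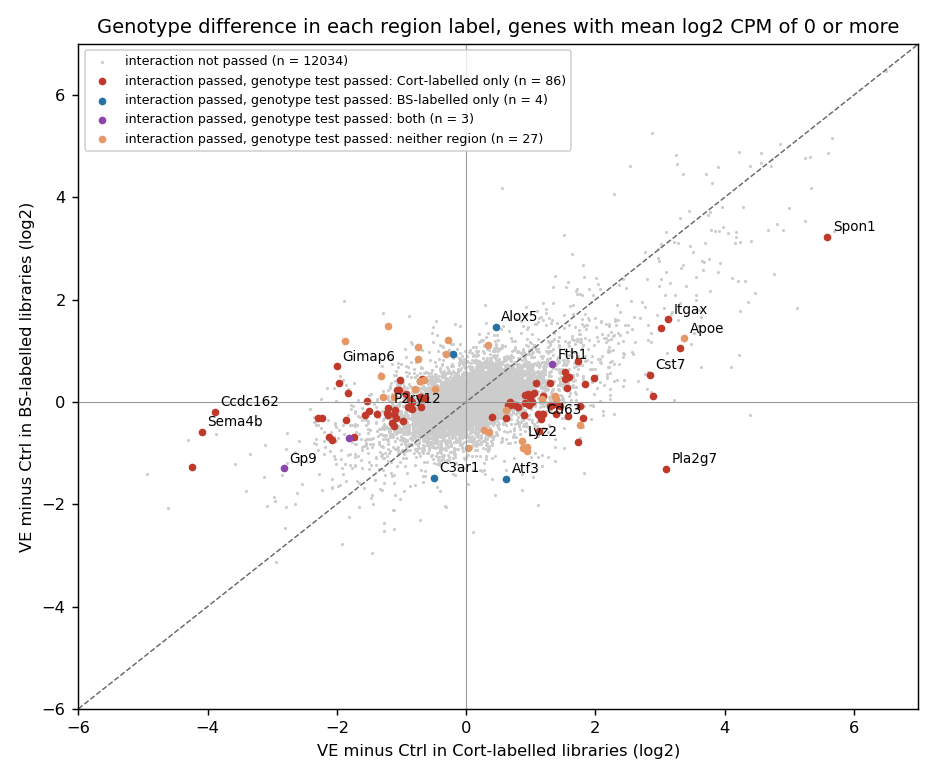
Each point is a gene with a mean log2 CPM of 0 or more, with the VE minus Ctrl log2 difference in Cort-labelled libraries on the x axis and in BS-labelled libraries on the y axis, and colours mark genes that passed the interaction by the region in which the genotype test passed. Genes that passed lie along the horizontal axis, far from 0 in Cort-labelled and near 0 in BS-labelled libraries, as for Cst7 (BS 0.54, Cort 2.84), while Atf3 and C3ar1 lie below 0 in BS-labelled libraries.

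Passing in 1 region only was much more common than a tested difference between regions. Of 1207 genes that passed in Cort-labelled and not in BS-labelled libraries, 89 also passed the interaction (0.536% of all genes tested) and 1118 did not. These 89 genes are here called restricted to Cort-labelled libraries. Of them 49 rose and 40 fell in VE, with a median absolute log2 difference of 0.245 in BS-labelled and 1.204 in Cort-labelled libraries. The BS-labelled estimate was smaller in all 89, as the selection requires it to be in part, and had the same sign in 48. In the other direction, 44 genes passed in BS-labelled and not in Cort-labelled libraries, and 4 of these passed the interaction (0.0241%). Another 97 genes passed in both regions, all in the same direction, and 4 of them also passed the interaction. The remaining 28 of the 125 passed in neither region alone.

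Disease-associated genes made up the most visible group with a weaker VE response in BS-labelled libraries. Of 30 tested, 7 passed with a negative interaction (Cst7, Apoe, Itgax, Ctsd, Cd63, Lgals3 and Ctsb), none with a positive one, and 29 of 30 estimates were below 0. The median interaction was -0.93 over the list and 0.01 over all genes tested. In BS-labelled libraries 1 rose and 1 fell, while in Cort-labelled libraries 18 rose and none fell. Of all genes tested, 0.548% rose and 0.301% fell in BS-labelled libraries, and 4.82% rose and 3.04% fell in Cort-labelled libraries. A negative interaction passed at 0.404% of them, and 49.3% of their estimates were below 0. Without the 4 mice whose genotype readings differ, 2 of 30 passed (Cst7 and Lgals3) and the median was -1.23. Of all 16595 genes 20 then passed with a negative value. By the records' genotypes none passed and the median was -0.25.

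Cst7 encodes cystatin F, an inhibitor of lysosomal proteases made by activated microglia. Its level in VE mice (in the order M1376, M1524, M2617, M2621 and M2624, kept below) was 12.5, 26.99, 13.6, 10.96 and 10.3 CPM in BS-labelled and 119, 134, 46.1, 43.3 and 52.5 CPM in Cort-labelled libraries. In Ctrl mice (M1375, M1521, M2618, M2629 and M2633, likewise) it was 8.63, 14.6, 9.95, 9.77 and 7.01 CPM in BS-labelled and 13.7, 32.5, 5.47, 5.81 and 5.02 CPM in Cort-labelled libraries. All 5 Cort-labelled VE libraries lay above all 15 others, whereas the BS-labelled VE libraries overlapped both Ctrl groups. The interaction was -2.37 ± 0.26 (log2, SE; adjusted p = 0.00139), from a VE minus Ctrl difference of 0.54 in BS-labelled and 2.84 in Cort-labelled libraries.

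**Figure D2:**
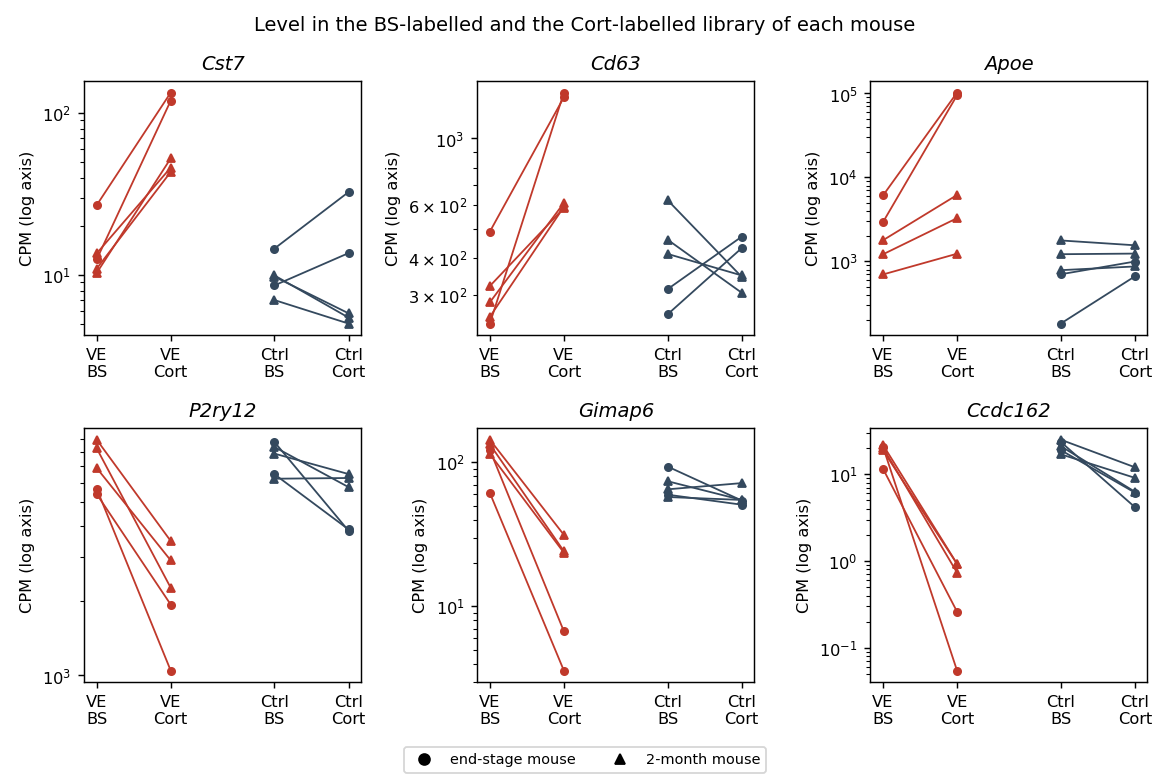
CPM on a log axis for 6 genes, with a line joining the BS-labelled and the Cort-labelled library of each mouse, VE mice in red on the left and Ctrl mice in grey on the right, circles for end-stage and triangles for 2 months. For Cst7, Cd63 and Apoe every VE line climbs toward the Cort-labelled library, and for P2ry12, Gimap6 and Ccdc162 every VE line drops. Many Ctrl lines run the same way. The Apoe line of M1375 climbs within the range of the VE lines, and those of M1521, M2629 and M2633 climb less. Cst7 and Cd63 climb in M1375 and M1521. Every Ctrl line drops for Ccdc162, all but that of M2633 for P2ry12, and all but that of M2629 for Gimap6.

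Cd63, a tetraspanin of late endosomes and lysosomes, split in the same way. VE mice had 242, 489, 284, 322 and 254 CPM in BS-labelled and 1422, 1372, 610.1, 587 and 592 CPM in Cort-labelled libraries. Ctrl mice had 259, 315, 623, 412 and 460 CPM in BS-labelled and 431, 471, 346, 349.7 and 306 CPM in Cort-labelled libraries. The 2 end-stage Cort-labelled VE libraries were the highest of all, and each VE mouse had less in its BS-labelled library. The interaction was -1.52 ± 0.19 (adjusted p = 0.00466). Reads of the processed pseudogene Cd63-ps, which also passed, cannot be separated from those of Cd63 with certainty.

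Itgax, which encodes the integrin CD11c, stood in VE mice at 7.88, 43.6, 19.01, 9.04 and 17.01 CPM in BS-labelled and 106, 329.7, 110.5, 54.3 and 99.3 CPM in Cort-labelled libraries. The Ctrl values were 1.65, 4.77, 6.67, 13.9 and 5.84 CPM in BS-labelled and 7.94, 22.4, 13.8, 17.1 and 10.6 CPM in Cort-labelled libraries. Every mouse of either genotype had more Itgax in its Cort-labelled library, and the gap was wider in all 5 VE mice (-3.72 to -2.53 on the log2 scale, BS minus Cort) than in any Ctrl mouse (-2.21 to -0.30). Its interaction was -1.55 ± 0.23 (adjusted p = 0.00881).

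Apoe, the main lipid carrier of glia, had the widest range among mice. VE libraries held 2936, 6096, 1785, 698 and 1214 CPM in BS-labelled and 95370, 102500, 6182, 1234 and 3273 CPM in Cort-labelled samples. Ctrl libraries held 182, 702, 1775, 1217 and 785 CPM in BS-labelled and 662, 995, 1555, 1238 and 869.7 CPM in Cort-labelled samples. The 2 end-stage VE mice were far above all others in the Cort-labelled library, and at 2 months 1 of 3 VE mice overlapped Ctrl in the Cort-labelled library and all 3 were in or near the Ctrl range in the BS-labelled one. The interaction passed at -2.14 ± 0.37 (adjusted p = 0.0193), and at each stage alone (-3.37 ± 0.42 at end-stage and -1.34 ± 0.21 at 2 months), while genotype passed in neither region (adjusted p = 0.453 in BS-labelled and 0.0659 in Cort-labelled libraries). Without pairing the mice its adjusted p was 0.146, so the call for Apoe rests on the within-mouse comparison. Of the other lipid genes fixed for naming, Lpl (-0.88, adjusted p = 0.655), Abca1 (-1.27, 0.174) and Abcg1 (-0.97, 0.48) did not pass. Apoe was the only one of 28 lipid and cholesterol genes to pass, where 0.753% of all genes tested passed.

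The lysosome list shares Ctsb, Ctsd, Ctsz, Ctsl and Cd68 with the disease-associated list. Of 27 genes tested, Ctsb, Ctsd and Neu1 passed with negative interactions, none with a positive one, 24 of 27 estimates were below 0 and the median was -0.43. A negative interaction passed at 0.404% of all genes tested, and 49.3% of all estimates were below 0. In BS-labelled libraries none rose or fell, and in Cort-labelled libraries 14 rose and 1 fell (4.82% and 3.04% of all genes did so there). Ctsb, a cysteine cathepsin, had 4771, 5311, 5635, 4284 and 4758 CPM in BS-labelled and 9791, 11350, 9314, 7482 and 7361 CPM in Cort-labelled VE libraries. It had 3445, 5799, 5631, 5282 and 5867 CPM in BS-labelled and 5711, 6638, 4936, 4721 and 4839 CPM in Cort-labelled Ctrl libraries. The 5 Cort-labelled VE libraries again lay above all 15 others, and the interaction of -0.80 ± 0.11 (adjusted p = 0.008) combined -0.07 in BS-labelled with 0.76 in Cort-labelled libraries. The aspartic cathepsin Ctsd passed at -0.67 ± 0.11 (adjusted p = 0.0145), and the sialidase Neu1 at -0.78 ± 0.14 (0.0193). Without the 4 mice none of the 27 passed and the median was -0.28. By the records' genotypes the median was 0.06. In 2-month mice alone, where 0.669% of all genes passed, 7 of 27 passed, all negative, and in end-stage mice alone none.

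Lysosomal genes often carry the element TCACGTGA, the core bound by TFEB-type factors, near their start. It was searched on both strands from 250 bases before to 50 bases after the start of each gene with a RefSeq window (GRCm38.p6). It was present in 1 of 50 negative genes (2.0%), 2 of 43 positive genes (4.65%), 4 of 22 lysosome genes (18.2%), 233 of 10736 tested genes (2.17%) and 304 of all 27025 genes with a window (1.12%). The counts of 1 and 2 genes are too few to set against these shares. The windows of the one negative gene and of Cd164, a lysosome-associated sialomucin with a positive interaction (0.95 ± 0.12, adjusted p = 0.00499), are shown because both genes code for lysosomal proteins and moved in opposite directions. Capitals mark the element, which starts 99 and 88 bases before the RefSeq start of each window. The GENCODE M21 gene starts differ (142388038 for Ctsd and 41519414 for Cd164), so these distances hold for the RefSeq starts only.
Ctsd (chr7:142387889-142387956, minus strand): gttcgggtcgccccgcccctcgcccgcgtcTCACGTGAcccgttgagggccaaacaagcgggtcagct
Cd164 (chr10:41519382-41519449, plus strand): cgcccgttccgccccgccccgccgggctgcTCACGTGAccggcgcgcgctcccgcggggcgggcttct

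Inflammatory and stress genes added single members to the negative set, which held 0.404% of all genes tested. Cxcl16, a chemokine for CXCR6-bearing lymphocytes, was the only one of 23 cytokines and chemokines to pass (-1.42 ± 0.19, adjusted p = 0.00506), and the list's median was -1.24 (-0.93 without the 4 mice, when none passed) with 2 genes up in BS-labelled and 14 up in Cort-labelled libraries (0.548% and 4.82% of all genes rose there). For Cxcl16 the levels were as follows. VE mice had 52.9, 111, 113, 71.6 and 61.1 CPM in BS-labelled and 336, 404, 232, 252 and 158 CPM in Cort-labelled libraries. Ctrl mice had 56.6, 94.5, 91.8, 99.7 and 86.6 CPM in BS-labelled and 111, 149, 79.8, 113 and 88.9 CPM in Cort-labelled libraries. The Cort-labelled VE libraries were above all others, and the remaining 3 groups overlapped. Cdkn1a, which encodes the cell-cycle inhibitor p21, passed at -1.43 ± 0.23 (adjusted p = 0.0129), and Lmnb1, the lamin B1 gene whose loss is linked to senescence, at -1.5 ± 0.31 (adjusted p = 0.0427). Both were higher in Cort-labelled VE libraries (1.29 and 1.84). Senescent cells are known for raised p21 and reduced lamin B1, and senescence was not tested. Cdkn1a and Lmnb1 were 2 of 16 senescence-linked genes tested, where 0.404% of all genes passed with a negative interaction. Of the 16, none rose in BS-labelled and 5 rose in Cort-labelled libraries (0.548% and 4.82% of all genes rose there): Cdkn1a, Lmnb1, Cdkn2a, Plaur and Glb1.

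Cell-cycle genes had a median interaction of -0.95, with 27 of 28 estimates below 0, where 49.3% of all tested genes were. None of the 28 passed, where 0.753% of all tested genes did. None rose in BS-labelled and 4 rose in Cort-labelled libraries (0.548% and 4.82% of all genes rose there). The median was -0.52 without the 4 mice and 0.23 by the records' genotypes, where 8 of 28 were below 0. It was -0.19 in end-stage mice alone and -1.41 in 2-month mice alone, where the mitotic kinase genes Aurka (-2.29 ± 0.45, adjusted p = 0.0398) and Cdk1 (-2.12 ± 0.40, 0.0356) passed. Iqgap3, a scaffold gene linked to proliferation that was not on the list, did pass (-1.91 ± 0.33, adjusted p = 0.0168).

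Some of the largest negative interactions belonged to genes of other roles. Pla2g7, a secreted phospholipase that breaks down platelet-activating factor, had 3.72, 4.28, 0.585, 0.737 and 0.0798 CPM in BS-labelled and 119, 118, 6.54, 2.46 and 10.7 CPM in Cort-labelled VE libraries. Ctrl libraries had 1.23, 6.64, 1.13, 3.68 and 2.45 CPM in BS-labelled and 0.635, 5.82, 1.91, 1.05 and 3.30 CPM in Cort-labelled samples. It was high in the 2 end-stage Cort-labelled VE libraries and low elsewhere, and passed at -4.45 ± 0.67 (adjusted p = 0.00913). Spon1, an extracellular matrix gene, had 4.88, 119.9, 4.02, 1.23 and 5.83 CPM in BS-labelled and 14.9, 369, 74.96, 19.1 and 70.99 CPM in Cort-labelled VE libraries. Its Ctrl values were 1.78, 1.45, 1.24, 1.04 and 1.05 CPM in BS-labelled and 0.847, 1.44, 2.52, 1.85 and 2.18 CPM in Cort-labelled libraries. All Cort-labelled and 4 of 5 BS-labelled VE libraries were above every Ctrl library. The VE minus Ctrl difference was 3.23 in BS-labelled (adjusted p = 0.146) and 5.59 in Cort-labelled libraries (adjusted p = 0.00254), with an interaction of -2.61 ± 0.27 (adjusted p = 0.000877). The immune receptor Cd244a (-2.85 ± 0.50) and the adhesion molecule Vcam1 (-1.67 ± 0.34) also passed, with adjusted p of 0.0193 and 0.0439. Ly9, which lies within the span of Cd244a on the other strand, passed in the same direction (-1.28 ± 0.22, adjusted p = 0.0168). With the strand setting not given, reads of Cd244a and Ly9 cannot be separated with certainty.

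**Figure D3:**
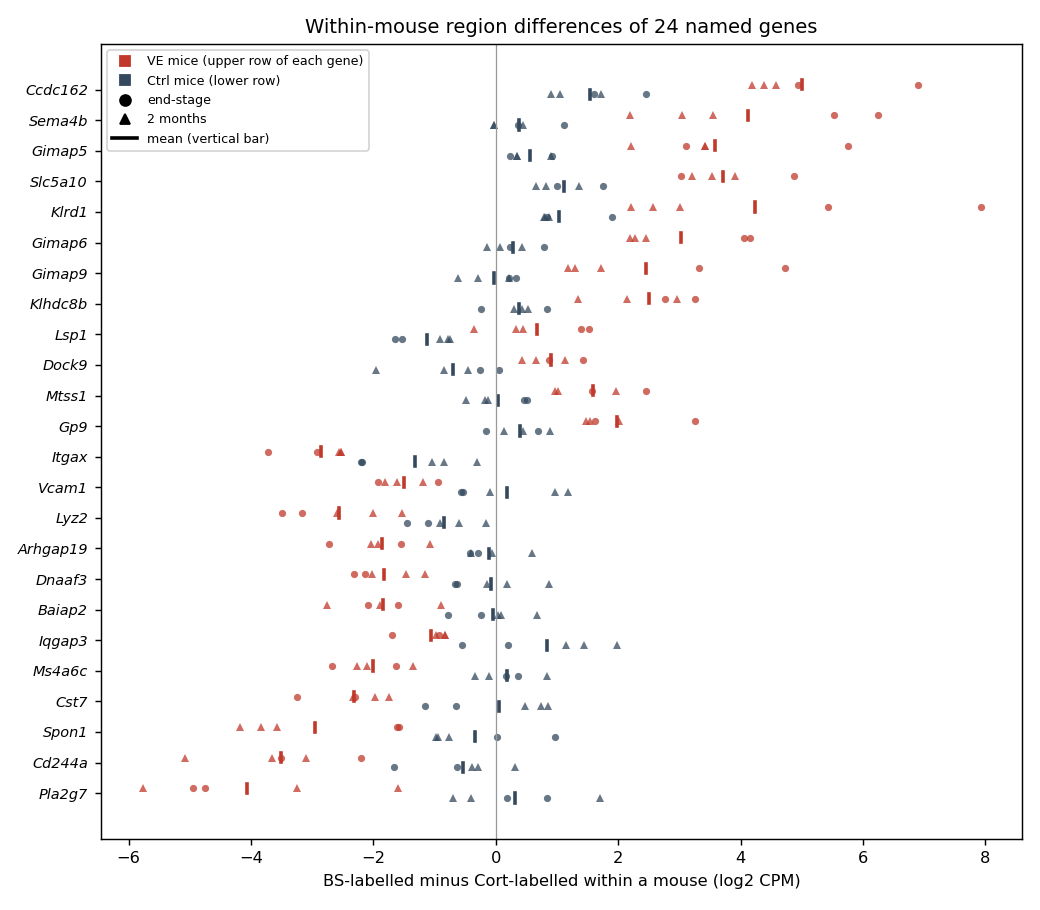
BS-labelled minus Cort-labelled log2 CPM within each mouse for the 12 genes with the largest positive and the 12 with the largest negative interaction that met the naming rule, VE mice in red above Ctrl mice in grey, with circles for end-stage, triangles for 2 months and a bar at the mean. The 2 genotypes do not overlap at any of these genes, which the rule required, and Ccdc162 reached 4.18 to 6.91 in VE mice against 0.89 to 2.46 in Ctrl mice.

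Homeostatic genes were the counterpart. Of 27 tested, P2ry13, P2ry12 and Rhob passed with positive interactions, none with a negative one, 24 of 27 estimates were above 0 and the median was 0.33. A positive interaction passed at 0.35% of all genes tested, and 8406 of all 16595 estimates were above 0. In BS-labelled libraries none rose and 1 fell, and in Cort-labelled libraries none rose and 12 fell, where 0.301% of all genes fell in BS-labelled and 3.04% in Cort-labelled libraries. Without the 4 mice none passed and the median was 0.30, and by the records' genotypes none passed and the median was 0.10.

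P2ry12, the ADP receptor that steers microglial processes, had 5404, 5679, 6885, 8270 and 8958 CPM in BS-labelled and 1933, 1046, 2915, 2260 and 3491 CPM in Cort-labelled VE libraries. Ctrl mice had 8769, 6498, 8370, 7869 and 6231 CPM in BS-labelled and 3843, 3890, 5764, 6508 and 6273 CPM in Cort-labelled libraries. The 5 Cort-labelled VE libraries were the lowest of the 20, and BS-labelled VE libraries overlapped BS-labelled Ctrl libraries. The VE minus Ctrl difference was -0.12 in BS-labelled and -1.20 in Cort-labelled libraries, and the interaction was 1.13 ± 0.19 (adjusted p = 0.0149).

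P2ry13, a related purine receptor gene that also lies on chromosome 3, passed at 0.73 ± 0.11 (adjusted p = 0.0115), with within-mouse differences of 0.62, 1.03, 0.94, 0.94 and 1.05 in VE mice and -0.00, 0.37, 0.16, 0.28 and 0.11 in Ctrl mice. Rhob, a small GTPase gene, passed at 0.60 ± 0.12 (adjusted p = 0.0446). Sall1, a transcription factor of microglial identity, had an interaction of 0.51 ± 0.13 (adjusted p = 0.108), and Tmem119 one of 0.27 ± 0.16 (adjusted p = 0.646). Fcrls had a VE minus Ctrl difference of -1.31 in BS-labelled (adjusted p = 0.099) and -1.5 in Cort-labelled libraries (adjusted p = 0.0105), with an interaction of 0.22 ± 0.24 (adjusted p = 0.849). Cx3cr1 itself, the driver locus, had an interaction of 0.52 ± 0.18 (adjusted p = 0.276).

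The Gimap genes, small GTPases of immune cells that lie together on chromosome 6, were the clearest positive group outside the lists. They were noticed after their values were seen. All 4 tested (Gimap6, Gimap9, Gimap5 and Gimap1) passed with positive interactions. Gimap6 had 122, 61.4, 134, 144 and 114 CPM in BS-labelled and 6.70, 3.58, 24.1, 31.4 and 23.6 CPM in Cort-labelled VE libraries. In Ctrl mice it had 59.6, 93.5, 57.5, 64.98 and 73.96 CPM in BS-labelled and 50.8, 54.3, 54.8, 71.8 and 54.8 CPM in Cort-labelled libraries. Cort-labelled VE libraries fell below all Ctrl libraries, and 4 of 5 BS-labelled VE libraries stood above all of them. The interaction was 2.74 ± 0.26 (adjusted p = 0.000877), from 0.70 in BS-labelled (adjusted p = 0.162) and -2.0 in Cort-labelled libraries (adjusted p = 0.00649). The others passed at 2.42 ± 0.41 (Gimap9), 3.17 ± 0.61 (Gimap5) and 1.47 ± 0.30 (Gimap1). When each mouse was left out in turn, Gimap6 and Gimap9 passed in 10 of 10 runs, Gimap5 in 3 and Gimap1 in 1.

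Ccdc162, a little-studied coiled-coil gene, was nearly lost from Cort-labelled VE libraries. VE mice had 20.6, 11.5, 20.2, 18.8 and 21.7 CPM in BS-labelled and 0.0545, 0.260, 0.733, 0.923 and 0.927 CPM in Cort-labelled libraries. Ctrl mice had 18.9, 23.5, 16.96, 24.97 and 21.03 CPM in BS-labelled and 6.14, 4.17, 9.08, 12.02 and 6.28 CPM in Cort-labelled libraries. BS-labelled libraries of the genotypes overlapped, whereas all Cort-labelled VE libraries were below 1 CPM. Its interaction was 3.66 ± 0.40 (adjusted p = 0.00139).

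Sema4b, a semaphorin gene, behaved alike, with 20.5, 8.89, 18.1, 20.4 and 16.7 CPM in BS-labelled and 0.327, 0, 2.08, 1.64 and 3.55 CPM in Cort-labelled VE libraries. Ctrl libraries held 27.3, 35.7, 24.8, 18.6 and 21.6 CPM in BS-labelled and 21.3, 16.5, 25.3, 13.6 and 22 CPM in Cort-labelled samples. The count of 0 in the Cort-labelled library of M1524 allows up to 0.195 CPM (3 counts). The interaction was 3.62 ± 0.49 (adjusted p = 0.00571). Slc5a10, a sugar transporter gene (3.03 ± 0.54), Klhdc8b (2.12 ± 0.31), Mtss1, a membrane-bending adaptor (1.56 ± 0.23), and Gp9, a glycoprotein gene known from platelets (1.55 ± 0.31), also passed, with adjusted p of 0.0216, 0.00852, 0.00881 and 0.0398.

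Only 4 genes met the rule for a change restricted to BS-labelled libraries. Atf3, a stress-induced transcription factor, had 6.05, 8.07, 10.6, 6.34 and 8.78 CPM in BS-labelled and 123, 78.3, 20.8, 23.6 and 21.9 CPM in Cort-labelled VE libraries. Ctrl mice had 18.3, 13.1, 35.6, 28.9 and 20.3 CPM in BS-labelled and 36.6, 24.7, 27.4, 17.6 and 26.5 CPM in Cort-labelled libraries. BS-labelled VE libraries were below all others, and in Cort-labelled libraries the 2 end-stage VE mice were high while the 2-month VE mice overlapped Ctrl. Atf3 fell by 1.5 in BS-labelled libraries (adjusted p = 0.021), with 0.62 in Cort-labelled ones (adjusted p = 0.294) and an interaction of -2.12 ± 0.32 (adjusted p = 0.00913). It also responds to cell isolation, and of 19 dissociation-induced early genes tested it was the only one to pass the interaction, with 1 of the list up and 2 down in BS-labelled and 4 up and 2 down in Cort-labelled libraries. Of all genes tested, 0.753% passed the interaction. In BS-labelled libraries 0.548% of all genes rose and 0.301% fell, and in Cort-labelled libraries 4.82% rose and 3.04% fell. Of the same list Egr1 passed in end-stage mice alone (-3.08 ± 0.49, adjusted p = 0.0345), and Atf3, Nr4a1 and Egr1 passed without the 4 mice. The part of isolation was not tested.

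C3ar1, the receptor for the complement fragment C3a, had 118, 97.1, 123, 129.9 and 40.7 CPM in BS-labelled and 424, 351, 168, 237 and 151 CPM in Cort-labelled VE libraries. Ctrl values were 278, 199, 204, 360.1 and 399 CPM in BS-labelled and 422, 293, 252, 385 and 419.7 CPM in Cort-labelled libraries. All 5 BS-labelled VE libraries were below every Ctrl library. It fell by 1.48 in BS-labelled libraries (adjusted p = 0.0413), with -0.50 in Cort-labelled ones (adjusted p = 0.224) and an interaction of -1.05 ± 0.22 (adjusted p = 0.0446). Among 2-month mice every Cort-labelled VE library (168, 237 and 151 CPM) was also below every Cort-labelled Ctrl library. The interaction passed in neither stage alone (-1.27 at end-stage, adjusted p = 0.0513, and -0.88 at 2 months, 0.247).

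Alox5, the 5-lipoxygenase gene of leukotriene synthesis, had 205, 130.5, 219.5, 160.3 and 146 CPM in BS-labelled and 115, 103, 77.7, 129.9 and 70.7 CPM in Cort-labelled VE libraries. Ctrl values were 44.6, 59.5, 78.8, 90.7 and 39.1 CPM in BS-labelled and 70.3, 68.2, 89.4, 90.8 and 42.2 CPM in Cort-labelled libraries. BS-labelled VE libraries were above all others, with a rise of 1.47 (adjusted p = 0.021) and an interaction of 1.03 ± 0.21 (adjusted p = 0.0418). Morc2a, a chromatin-silencing ATPase gene, rose by 0.93 in BS-labelled libraries (adjusted p = 0.0233), with an interaction of 1.10 ± 0.22 (adjusted p = 0.0405). When each mouse was left out in turn, Atf3 passed the interaction in 10 of 10 runs, C3ar1 in 2, and Alox5 and Morc2a in 1 each. Of the other genes named here, Fth1 passed in 3 of these runs, Vcam1 in 2, and Rhob, Lmnb1 and Klrd1 in 1 each. The count restricted to BS-labelled libraries lay between 0 and 2.

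Of the 97 genes that passed in both regions, 4 differed in size between them. Fth1, the ferritin heavy chain gene, rose by 0.74 in BS-labelled and by 1.34 in Cort-labelled libraries, with an interaction of -0.60 ± 0.12 (adjusted p = 0.0389). Gp9 fell by 1.29 in BS-labelled and by 2.82 in Cort-labelled libraries, and Ecscr fell by 0.70 in BS-labelled and by 1.81 in Cort-labelled ones. Oas3, an interferon-induced sensor gene, had 332 counts over the 5 BS-labelled and 1803 over the 5 Cort-labelled VE libraries. It had 13 counts over the BS-labelled and 0 over the Cort-labelled Ctrl libraries, which makes the Cort-labelled level at least 523-fold higher in VE (3 counts over the group as the floor). All 4 showed the larger change in Cort-labelled libraries.

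Several genes with large mutant changes showed no tested regional difference. Spp1, which encodes osteopontin, had 9.43, 237, 103, 16.4 and 36.7 CPM in BS-labelled and 929, 3870, 340.3, 205 and 1218 CPM in Cort-labelled VE libraries. Ctrl libraries held 0.735, 0.467, 3.11, 9.38 and 1.17 CPM in BS-labelled and 11.2, 62.4, 11.8, 33.6 and 15.1 CPM in Cort-labelled samples. Its VE minus Ctrl difference was 4.78 ± 1.06 in BS-labelled (adjusted p = 0.0627) and 5.33 ± 0.72 in Cort-labelled libraries (adjusted p = 0.00128), and the interaction of -0.66 ± 0.77 (adjusted p = 0.866) has an error of the size of the estimate. Etv4, an ERK-induced transcription factor, had a low mean log2 CPM of 0.66. It gave 3.33 ± 0.99 in BS-labelled (adjusted p = 0.153) and 3.09 ± 0.81 in Cort-labelled libraries (adjusted p = 0.0391). Its interaction of 0.49 ± 0.64 (adjusted p = 0.9) again has an error of the size of the estimate. Of 16 ERK output genes none passed the interaction, 2 rose in BS-labelled and 3 in Cort-labelled libraries (0.548% and 4.82% of all genes rose there), and the median interaction was 0.26. Gpnmb had 23 counts over the BS-labelled and 1497 over the Cort-labelled VE libraries, against 9 and 13 over the same regions of Ctrl mice. Its VE minus Ctrl difference was 1.09 in BS-labelled (adjusted p = 0.846) and 5.20 in Cort-labelled libraries (adjusted p = 0.0318). The interaction of -3.27 ± 1.85 was large but imprecise and did not pass (adjusted p = 0.617), so equal changes in the 2 regions are not shown. Il6 narrowly missed (2.05 ± 0.44, adjusted p = 0.0521), with within-mouse differences of -0.30 to 3.34 in VE and -1.78 to -0.62 in Ctrl mice. Braf, whose counts do not tell the alleles apart, had an interaction of 0.08 ± 0.41 (adjusted p = 0.985), Jun one of 0.10 ± 0.18 (adjusted p = 0.923) and Dusp1 one of -0.64 ± 0.34 (adjusted p = 0.571).

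**Figure D4:**
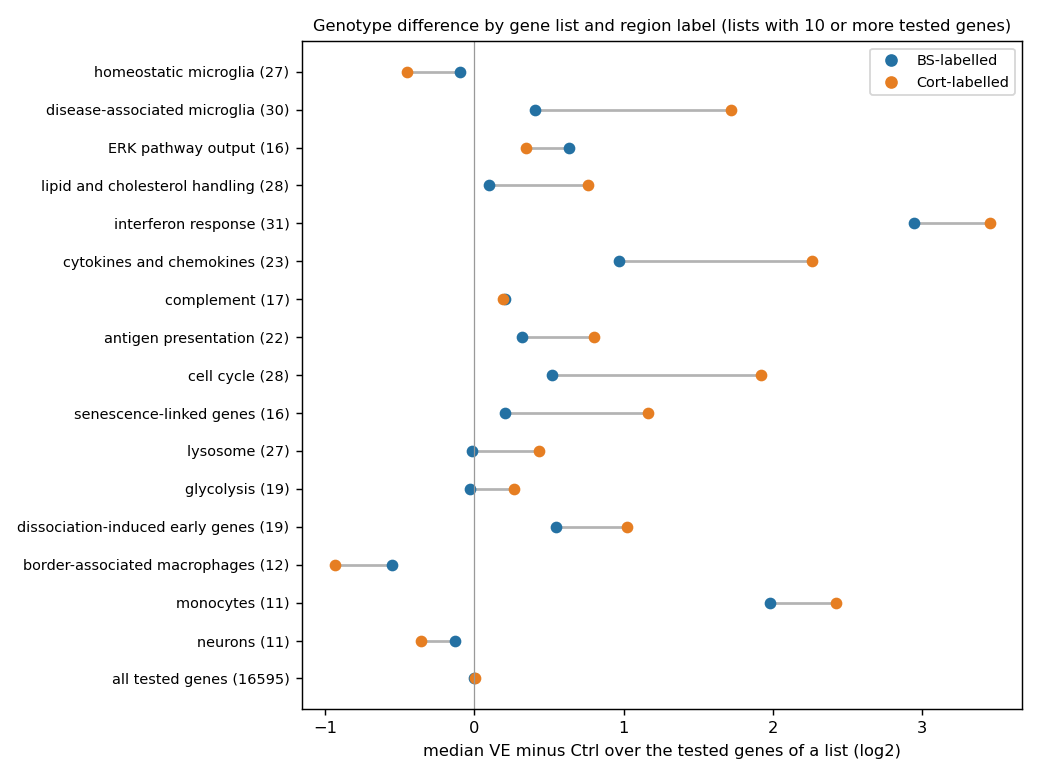
Median VE minus Ctrl log2 difference over the tested genes of each list with 10 or more tested genes (number in brackets), with BS-labelled libraries in blue and Cort-labelled libraries in orange. The disease-associated list runs between 0.41 in BS-labelled and 1.72 in Cort-labelled libraries, the interferon list is high in both at 2.94 and 3.45, and all tested genes sit at 0.

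Interferon-response genes were higher in VE microglia of both regions. Of 31 tested, 15 rose in BS-labelled and 29 in Cort-labelled libraries (0.548% and 4.82% of all genes rose there), none fell, and none passed the interaction, with a median of -0.47. Oas3, an interferon-induced gene not on the list, did pass the interaction (-7.70 ± 0.93, adjusted p = 0.00881), with 0 counts over the Cort-labelled Ctrl libraries. Without the 4 mice whose genotype readings differ, no gene of all tested passed in BS-labelled libraries, the 15 included, and the interaction median was 0.39 with 1 gene passing (Zbp1). By the records' genotypes 1 gene of all tested passed in BS-labelled and none in Cort-labelled libraries, and the interaction median was 1.08. The list's medians at the 2 stages had opposite signs, however. Of the 6 mice at 2 months 4 have differing genotype readings, which leaves 1 VE and 1 Ctrl mouse with a single reading, so every 2-month value and every comparison of stages rests on the 4 mice. In 2-month mice alone, where 111 genes passed the interaction (0.669%), 4 of 31 passed with negative values and the list's median was -1.63. In end-stage mice alone, where 63 passed (0.38%), 2 of 31 passed with positive values and the median was 1.27. The 4 genes at 2 months were Gbp2 (-2.81 ± 0.51, adjusted p = 0.0308), Mx2 (-2.55 ± 0.43, 0.0216), Bst2 (-1.88 ± 0.32, 0.0218) and Irgm1 (-1.27 ± 0.25, 0.0399). The 2 at end-stage were Oasl2 (2.45 ± 0.38, adjusted p = 0.0307) and Ifit3 (2.08 ± 0.33, 0.0342). Mx2, Irgm1, Oasl2 and Ifit3 were named after their values were seen.

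Of the antigen-presentation list no gene of 22 passed over both stages, none rose in BS-labelled and 11 rose in Cort-labelled libraries (0.548% and 4.82% of all genes rose there). H2-DMb2, a class II presentation gene not on the list, did pass over both stages (0.84 ± 0.17, adjusted p = 0.0446). At 2 months, where 0.669% of all genes passed, 7 of 22 passed with negative values. All were of the MHC class I route: H2-D1, H2-K1, H2-Q4, H2-Q7, H2-T23, Tap1 and B2m, between -3.26 for H2-Q7 and -1.12 for B2m. At end-stage none passed, and the list's median was 0.18. Of the 7, H2-D1 was the only one to pass a test of the difference between stages. Class I genes are near-identical paralogs, so reads may be divided among H2-D1, H2-K1, H2-Q4 and H2-Q7.

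A change of the regional difference with stage was tested directly at all genes. It passed at 4 of 16595 (0.0241%), at 0 without the 4 mice and at 1 by the records' genotypes, where a positive value means an interaction higher at end-stage than at 2 months. They were H2-D1 (2.17 ± 0.27, adjusted p = 0.014), Ifi47, an interferon-induced GTPase gene (5.36 ± 0.78, 0.0399), Ly6a, which encodes the interferon-responsive surface protein Sca-1 (4.80 ± 0.68, 0.0399), and the tetraspanin gene Upk1b (3.15 ± 0.36, 0.0118). H2-D1 stood at 2015, 5476, 3102, 1454 and 2570 CPM in BS-labelled and 6146, 11500, 15710, 7618 and 9958 CPM in Cort-labelled VE libraries. Ctrl mice had 661, 1665, 859, 1483 and 1420 CPM in BS-labelled and 2110, 4795, 1076, 2103 and 1565 CPM in Cort-labelled libraries. The first 2 mice of each genotype are the end-stage ones. BS minus Cort differences were -1.61, -1.07, -2.34, -2.39 and -1.95 in VE and -1.67, -1.53, -0.32, -0.50 and -0.14 in Ctrl mice, close between genotypes at end-stage and lower in VE at 2 months. Stage here is also sex in part, since no end-stage mouse was male in pattern, and the stages hold 2 and 3 mice a genotype; these cannot be told apart.

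**Figure D5:**
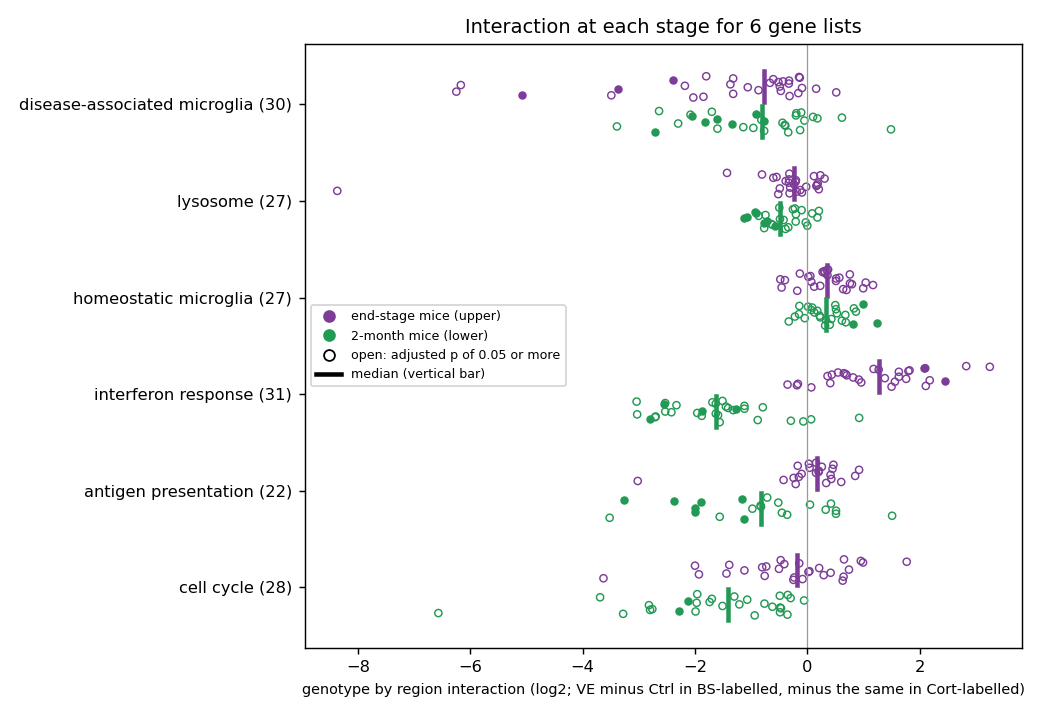
Genotype by region interaction (log2) of each tested gene of 6 lists, end-stage mice above in purple and 2-month mice below in green, filled where the adjusted p at that stage was under 0.05, with a bar at the median. The interferon medians lie at 1.27 at end-stage and -1.63 at 2 months, while the disease-associated medians lie on the same side at -0.77 and -0.80.

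The stages share no mouse, so genes called in one could be looked up in the other. Of 111 genes that passed at 2 months, 78 had the same sign at end-stage (70.3%), where 52.8% of all tested genes did, and 40 had the same sign with an unadjusted p under 0.05 (36.0%, against 4.47% of all tested genes). Of 63 that passed at end-stage, 49 had the same sign at 2 months (77.8%) and 32 also an unadjusted p under 0.05 (50.8%, against 6.63%). In all, 10 genes passed in both sets of mice (9.01% of the 111 and 15.9% of the 63): Gimap6, Gimap9, Ccdc162, Sema4b, Klhdc8b and Klrd1 with positive values, and Apoe, Lyz2, Ms4a6c and the predicted gene Gm26917 with negative ones. Lyz2, a lysozyme gene that may share reads with its paralog Lyz1, had -2.05 ± 0.24 at end-stage and -1.47 ± 0.27 at 2 months. Klrd1, the CD94 receptor gene, had 5.62 ± 0.92 at end-stage and 1.78 ± 0.31 at 2 months.

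Markers of other blood cells moved with part of these results. Ms4a6c, on the monocyte list, passed at -2.19 ± 0.29 (adjusted p = 0.00499). It had 13.2, 36.4, 22.1, 15.3 and 12.4 CPM in BS-labelled and 84.8, 113, 56.8, 66.5 and 60.3 CPM in Cort-labelled VE libraries, and 23.6, 19.03, 35.1, 20.97 and 23.2 CPM in BS-labelled and 18.2, 16.97, 19.7, 26.5 and 25.1 CPM in Cort-labelled Ctrl libraries. Of the 14 monocyte markers 11 were tested and 1 was called, where 0.753% of all genes tested were called. The summed level of the 14 was 33.8 to 177 CPM in BS-labelled and 232 to 1080 CPM in Cort-labelled VE libraries. It was 31.3 to 51.2 CPM in BS-labelled and 26.9 to 57.3 CPM in Cort-labelled Ctrl libraries. The defining monocyte gene Ly6c2 was at most 0.474 CPM in BS-labelled and 1.11 CPM in Cort-labelled VE libraries, and Ccr2 was 3.46 to 10.0 CPM in BS-labelled and 1.24 to 2.02 CPM in Cort-labelled VE libraries, against 1.09 to 2.69 CPM in BS-labelled and 0.315 to 4.08 CPM in Cort-labelled Ctrl libraries. Plac8, another gene of the list, stood at 1.84 to 22.4 CPM in BS-labelled and 0.326 to 96.5 CPM in Cort-labelled VE libraries, against at most 3.8 CPM in BS-labelled and 4.44 CPM in Cort-labelled Ctrl libraries. Its interaction was -2.05 ± 1.18 over both stages (adjusted p = 0.612), and it passed in 2-month mice alone (-4.11 ± 0.80, adjusted p = 0.0391). Ms4a4c rose in Cort-labelled VE libraries (3.08, adjusted p = 0.000546), with an interaction of -1.26 ± 0.56 (adjusted p = 0.437). The list's genes thus did not move as one. The part of monocyte-like cells in the disease-associated and lysosomal genes was not tested, and in bulk libraries fewer cells of a type and less RNA per cell cannot be told apart.

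Klrd1 was 1 of 3 tested genes of the T and NK list and Bank1, an adaptor gene of B cells, 1 of 4 of the B-cell list to pass, both positive (2.79 ± 0.59, adjusted p = 0.0489, and 2.15 ± 0.34, 0.0117). A positive interaction passed at 0.35% of all genes tested. Bank1 stood at 30.8, 23.8, 45.9, 59.2 and 58.8 CPM in BS-labelled and 0.872, 1.24, 7.21, 4.15 and 12.6 CPM in Cort-labelled VE libraries. Ctrl mice had 74.6, 44.8, 53.7, 57.2 and 29.7 CPM in BS-labelled and 15.5, 11.5, 23.4, 21.5 and 25.3 CPM in Cort-labelled libraries. Every mouse had more Bank1 in its BS-labelled library, and 4 of 5 Cort-labelled VE libraries were below all Ctrl libraries. The summed T and NK markers were 18.1 to 80.6 CPM in BS-labelled and 0.846 to 18.8 CPM in Cort-labelled VE libraries, against 8.76 to 23.9 CPM in BS-labelled and 4.11 to 14.3 CPM in Cort-labelled Ctrl libraries. Klrd1 had a mean log2 CPM of 3.08, against -0.46 for Lck and -2.47 for Cd4, the other tested genes, so the sum largely restates Klrd1. With Cd3e near 0 in all libraries, Klrd1 was detected without this defining marker of T cells. No gene passed among those tested of the lists for border-associated macrophages (12), neutrophils (4), astrocytes (8), oligodendrocytes (8), their precursors (5), neurons (11) and endothelial cells and pericytes (7).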

How the data were processed

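Microglia of 10 mice gave 20 bulk libraries, prepared per the labels with a SMART-Seq v4 kit (12 cycles) and a KAPA Hyper Prep kit (8 cycles). The authors deposited raw counts per gene, not normalized. FastQC, Subread, edgeR and mm10 were named in the submitters' processing notes without versions. Annotation, strand setting and the handling of multi-mapping reads are not given in the sources used here, so overlapping genes and close copies may share reads. Symbols were assigned to 55394 of 55487 identifiers with GENCODE M21, and the 93 others held 0.00123% of counts.

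The tests used edgeR 4.0.16 (R 4.3.3). filterByExpr kept 16595 genes, which held 99.9% of counts, and TMM factors were used. The interaction model had a term for each mouse, region, region by stage and region by genotype, with 7 residual degrees of freedom. Genotype within a region was fitted on its 10 libraries with stage. Each test was adjusted across the 16595 genes (Benjamini-Hochberg, threshold 0.05), and log2 values are given with standard errors. Adjusted p-values are from these fits unless a single stage, an unpaired fit or another alternative is named. CPM uses TMM-scaled library sizes, and within-mouse differences a prior count of 2. Tests were checked on simulated data.

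Mice share both libraries by the mouse number in the column names. Same-mouse libraries deviated together from their group means over tested genes (correlation 0.101 to 0.265). These 10 values are not independent. An end-stage group holds 2 mice, whose deviations mirror each other and must give the same value (0.101 for M1375 and M1521, 0.265 for M1376 and M1524). The 2-month mice are also linked through their group means. Mice are separate animals. A count of 0 allows 3 counts, 0.147 to 0.318 CPM, for counting error only, since reads carry no molecular identifiers.

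The members, gene lists and the genes named were chosen with earlier results of these data known. The named genes are the 12 largest positive and 12 largest negative interactions without overlap between genotypes and averaging log2 CPM 1 or more, predicted, Riken, pseudogene and unnamed identifiers left out, up to 3 per list by p, a fixed set, and up to 8 restricted to BS-labelled libraries. Low-count list members are counted but not all are named. Alternatives were the records' genotypes, leaving out mice, no pairing, DESeq2 1.42.0, limma 3.58.1, other scaling and filters, no stage term, and single stages. List counts under alternatives and the lookup between stages were added after seeing the data.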

Additional observations from a re-analysis of the deposited data

Results flagged for a closer look

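Among 130 groups of 5 values examined, 6 (4.62%) had a value far from the other 4, and chance flags about 1 in 20. In VE mice the BS minus Cort log2 difference of M1376 was 6.91 for Ccdc162 (other 4 mice 4.18 to 4.95), 0.618 for P2ry13 (others 0.939 to 1.05) and -1.7 for Iqgap3 (others -0.979 to -0.826). In Ctrl mice it was 1.89 for Klrd1 in M1521 (others 0.788 to 0.866), 0.593 for Fcrls in M1375 (others 1.29 to 1.5) and -1.22 for Braf in M2633 (others 0.566 to 1.08). The Braf value is 1 of 5 below 0, in a mouse whose genotype readings differ.

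The regional interaction differed between end-stage and 2-month mice, by a test of that difference, at Upk1b (3.15 ± 0.36, SE; edgeR adjusted p = 0.0118), H2-D1 (2.17 ± 0.27, adjusted p = 0.014), Ifi47 (5.36 ± 0.78, adjusted p = 0.0399) and Ly6a (4.8 ± 0.68, adjusted p = 0.0399). In all 4 the value was higher at end-stage.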

How the results depend on the processing

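Counts are given in the order interaction, genotype in BS-labelled, genotype in Cort-labelled, restricted to BS-labelled, restricted to Cort-labelled and interaction by stage; as reported they were 125, 141, 1304, 4, 89 and 4. By the records' genotypes they were 0, 1, 0, 0, 0 and 1, with 952 genes at an unadjusted p under 0.05 for the interaction (1760 as reported), and 109 of the 125 kept their sign. Vcam1 (0.49) and Ctsd (0.0347) then turned positive. Without M2617, M2618, M2621 and M2633 the counts were 30, 0, 380, 0, 19 and 0, with 19 of the 125 still called and all 125 of the same sign, and BS-labelled libraries had 1490 genes at an unadjusted p under 0.05. DESeq2 gave 541, 670, 2239, 42, 339 and 101, with 123 of the 125 called. No low-count filter gave 602, 828, 2188, 58, 368 and 233. limma on within-mouse differences gave 190 interactions, including all 125. A mean CPM of at least 1 gave 8 interactions by stage. Without a stage term there were 38 interactions and 90 genes in BS-labelled libraries. End-stage mice alone gave 63, 4 and 539 for the first 3 counts, and 2-month mice alone 2 in BS-labelled and 809 in Cort-labelled libraries. RLE size factors gave 131 interactions. No interaction by stage was fitted with limma, without a stage term or within a stage.

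Without the replicate block, that is without pairing the libraries of a mouse, 31 genes passed the interaction, 29 of them among the 125. Leaving out 1 mouse at a time gave 48 to 119 interactions, 20 to 177 genes in BS-labelled and 723 to 1502 in Cort-labelled libraries, 0 to 2 restricted to BS-labelled and 33 to 84 restricted to Cort-labelled libraries, and 0 to 27 interactions by stage. The interaction count fell to 62 without M1521, 83 without M2617, 73 without M2618, 53 without M2624 and 48 without M2633. All 125 genes kept their sign in these 10 runs, 40 were called in all and 3 in none. The cause of these shifts was not tested, beyond the smaller number of mice.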

Other observations

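Ribosomal protein genes shifted together, a set chosen after its values were seen and so given without a test. Of 77 tested, 76 had a negative interaction, where 49.3% of all tested genes did, and the median was -0.65. Only 4 passed: Rpl32 (-0.94), Rpl41 (-1.07), Rps18 (-0.90) and Rpl23 (-0.87). The median VE minus Ctrl difference was 0.26 in BS-labelled and 0.94 in Cort-labelled libraries, and none rose in BS-labelled and 65 in Cort-labelled libraries (0.548% and 4.82% of all genes rose there). The predicted genes Gm26917 (-2.23) and Gm23935 (-1.30) passed in the same direction. Processed pseudogenes of ribosomal proteins can share reads with them.

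Purine receptors did not move as one family. P2ry12 (1.13) and P2ry13 (0.73) had positive interactions, while the ATP-gated channel gene P2rx4 (-0.90) and P2ry14 (-5.70, at a low level) had negative ones.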
